A study of Mus musculus with 2 samples.

Results

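The 32 genes described here are those of glycolysis and of the response to low oxygen, out of 33696 genes counted in 2 libraries of mouse mammary tumors. They were chosen by function and not by a measured value, though with earlier results of these data known. They fall into 16 glycolytic genes (glucose and lactate transporters and the enzymes from hexokinase to lactate dehydrogenase), 14 targets of hypoxia-inducible factor (HIF) that are not glycolytic enzymes, here called HIF-only targets, and 2 genes for HIF alpha subunits, Hif1a and Epas1. All 32 had at least 1 UMI in each library. The libraries came from tumors of PyMT-M, a line the study classes as rich in macrophages (High-MAC), and PyMT-N, a line it classes as poor in them (Low-MAC). PyMT stands for polyoma middle T antigen, the oncogene of a widely used mouse model of breast cancer. The labels name no treatment. Both lines were grown in female C57BL/6 mice after injection of tumor cells into the mammary fat pad, and each condition is 1 line. Cells from 3 tumors were pooled per line, depleted of CD45+ and Ter119+ cells, selected and sorted for endothelial cells, and profiled in 1 droplet-based 3′ library per line. The difference between PyMT-M and PyMT-N therefore has no replicate, and tumor line, animals and library cannot be told apart.

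Glycolysis splits glucose into pyruvate in the cytosol, and lactate dehydrogenase and the lactate exporter remove the product when it is not oxidized in mitochondria. Endothelial cells are known to draw much of their energy from glycolysis, and tip cells at the front of a sprouting vessel are a well-studied case. When oxygen is low, HIF alpha subunits escape prolyl hydroxylation and degradation, pair with Arnt and bind DNA at hypoxia response elements. Most glycolytic enzymes are HIF targets, but they also follow growth signals and the cell cycle, whereas targets such as Adm, Ankrd37 and Egln3 are read more often as reporters of HIF itself. Epas1 is the HIF alpha subunit typical of endothelium.

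Cells were assigned to classes by their own marker counts, and cells that met more than 1 rule were left out. The exception is lymphatic levels read over all cells that met the lymphatic rule, as stated where used. Of 6719 kept PyMT-M cells and 5607 kept PyMT-N cells, 583 (8.68%) and 1013 (18.1%) were blood endothelial, 4849 (72.2%) and 3278 (58.5%) were tumor cells, 45 and 53 were fibroblasts, and 441 and 278 were Ptprc+ cells, Ptprc being the gene of CD45. Most kept cells of these endothelial-enriched samples thus carried tumor markers. The classes were checked with markers outside their rules, and 10 further endothelial markers summed to 3971 CPM (PyMT-M) and 5258 CPM (PyMT-N) in blood endothelial cells against 6.35 and 7.99 CPM in tumor cells, CPM being the UMIs of a gene for every 1000000 UMIs of the class in a library. Tumor markers outside the rule were at 54.3 and 214 CPM in blood endothelial cells, which was 2.29% and 0.745% of their level in tumor cells, with Krt19 and Krt7 at 0 in both libraries. Of 7 macrophage markers 5 were at 0 in PyMT-M blood endothelial cells and 1 in PyMT-N, and their sums were 3.99 and 4.88 CPM. Pericyte markers summed to 108 and 283 CPM and fibroblast markers to 31.0 and 5.89 CPM in the same cells. Depth differed by library, and the median blood endothelial cell held 5197 (PyMT-M) or 12397 (PyMT-N) UMIs, and the libraries shared 20 cell barcodes. Fewer cells with a transcript and less transcript per cell cannot be told apart in sums over cells.

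Many promoters of these genes hold the letters that HIF binds, and 7 are shown first, of genes named for their results below. Binding of HIF was not measured. The core of a hypoxia response element is ACGTG or GCGTG. RefSeq promoters of the mouse build GRCm38.p6 (250 bases before to 50 bases after a gene's start) matched 30 of the 32 genes, and Ndrg1 and Epas1 had no entry. The sequences below run 5′ to 3′ on the strand of the gene over the 250 bases before its start, with either core in capitals, on the strand printed (ACGTG or GCGTG) or on the opposite strand, where they read CACGT or CACGC. Pgk1 (chrX:106186850-106187099, plus strand) and Slc16a3 (chr11:120948817-120949066, plus strand) are glycolytic genes that were higher in tip-marker-high endothelial cells of both libraries. Tpi1 (chr6:124814159-124814408, minus strand) is another such gene, and no match was found in its window. Hk2 (chr6:82774455-82774704, minus strand) was nearly at 0 in blood endothelial cells.
Pgk1: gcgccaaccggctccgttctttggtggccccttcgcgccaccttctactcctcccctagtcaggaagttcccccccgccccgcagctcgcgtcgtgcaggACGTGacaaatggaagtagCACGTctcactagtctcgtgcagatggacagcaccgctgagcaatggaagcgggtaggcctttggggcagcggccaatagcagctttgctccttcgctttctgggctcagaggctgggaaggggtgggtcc
Slc16a3: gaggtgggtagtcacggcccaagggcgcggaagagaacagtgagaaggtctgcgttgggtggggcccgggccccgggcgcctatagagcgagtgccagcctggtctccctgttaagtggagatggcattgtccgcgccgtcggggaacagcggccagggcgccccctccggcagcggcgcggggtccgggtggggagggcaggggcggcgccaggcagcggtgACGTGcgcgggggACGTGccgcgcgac
Tpi1: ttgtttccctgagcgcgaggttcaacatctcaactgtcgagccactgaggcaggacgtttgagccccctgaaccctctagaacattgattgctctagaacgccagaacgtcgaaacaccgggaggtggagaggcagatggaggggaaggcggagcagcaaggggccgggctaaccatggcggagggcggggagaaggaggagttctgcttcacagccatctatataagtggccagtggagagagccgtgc
Hk2: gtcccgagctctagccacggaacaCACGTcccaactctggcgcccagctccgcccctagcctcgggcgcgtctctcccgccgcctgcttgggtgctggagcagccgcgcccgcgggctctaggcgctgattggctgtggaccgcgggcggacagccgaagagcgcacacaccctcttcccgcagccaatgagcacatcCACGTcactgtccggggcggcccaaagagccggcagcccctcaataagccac

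Among HIF-only targets, Adm (chr7:110627407-110627656, plus strand), Ankrd37 (chr8:45999851-46000100, minus strand) and Egln3 (chr12:54203875-54204124, minus strand) had the widest differences between states of endothelial cells in PyMT-M.
Adm: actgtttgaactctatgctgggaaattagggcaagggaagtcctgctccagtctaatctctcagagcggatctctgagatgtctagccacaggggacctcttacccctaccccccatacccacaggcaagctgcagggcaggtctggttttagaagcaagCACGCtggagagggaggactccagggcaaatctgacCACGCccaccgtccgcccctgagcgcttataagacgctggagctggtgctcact
Ankrd37: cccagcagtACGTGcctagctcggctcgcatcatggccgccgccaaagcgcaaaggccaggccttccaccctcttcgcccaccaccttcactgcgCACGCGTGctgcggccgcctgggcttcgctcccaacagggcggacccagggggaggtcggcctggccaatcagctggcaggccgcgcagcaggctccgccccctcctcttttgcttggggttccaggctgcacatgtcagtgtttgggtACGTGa
Egln3: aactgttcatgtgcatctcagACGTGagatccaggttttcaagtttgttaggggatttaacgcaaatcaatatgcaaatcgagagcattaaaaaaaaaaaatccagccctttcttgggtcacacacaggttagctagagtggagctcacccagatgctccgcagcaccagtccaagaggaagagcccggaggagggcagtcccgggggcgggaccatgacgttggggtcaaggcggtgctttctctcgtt

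The match nearest to a gene's start was that of Ankrd37, 6 bases before it, and Slc16a3 held ACGTG at 27 and 14 bases before its start. Pgk1 held ACGTG in opposite orientations at 150 and 131 bases. Adm had no ACGTG here but GCGTG at 90 and 54 bases, on the reverse strand, and Egln3 had 1 ACGTG at 229 bases. Read on both strands over the whole window, ACGTG was found for 11 of 16 glycolytic genes (68.8%) and 10 of 13 HIF-only targets (76.9%), against 21.8% of 27025 genes in the promoter table. GCGTG was found for 9 of 16 (56.3%) and 11 of 13 (84.6%), against 35.2% of all genes. Genes of pyruvate entry and the tricarboxylic acid (TCA) cycle held ACGTG in 3 of 13 (23.1%) and GCGTG in 10 of 13 (76.9%). Some genes have several windows. Counted by window, ACGTG was in 42.1% of 19 for this list. The shares were 54.2% of 24 for glycolytic genes, 58.8% of 17 for HIF-only targets and 19.6% of all windows. Windows of the glycolytic genes and HIF-only targets were also richer in G and C, with medians of 64.8% and 66.0% against 52.7% for all windows. The median for pyruvate entry and TCA cycle genes was 61.3%. The part of base composition in these shares was not tested. CACGTG holds ACGTG on both strands and was counted within it.

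The glycolytic genes together summed in blood endothelial cells to 5317 CPM for PyMT-M (95% interval 5238 to 5397) and 4697 CPM for PyMT-N (4661 to 4734). In tumor cells the sums were 10717 and 5618 CPM, in fibroblasts 4800 and 3999, and in Ptprc+ cells 6099 and 3313. Gapdh supplied between 30.3% and 42.4% of the sum in these classes. HIF-only targets summed to 811 and 792 CPM in blood endothelial cells, 967 and 532 in tumor cells, 987 and 823 in fibroblasts, and 774 and 385 in Ptprc+ cells. Blood endothelial cells of the 2 libraries thus stood close to each other in both sums, while the tumor cells lay apart. All intervals here are exact Poisson intervals and cover counting error only.

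**Figure D1:**
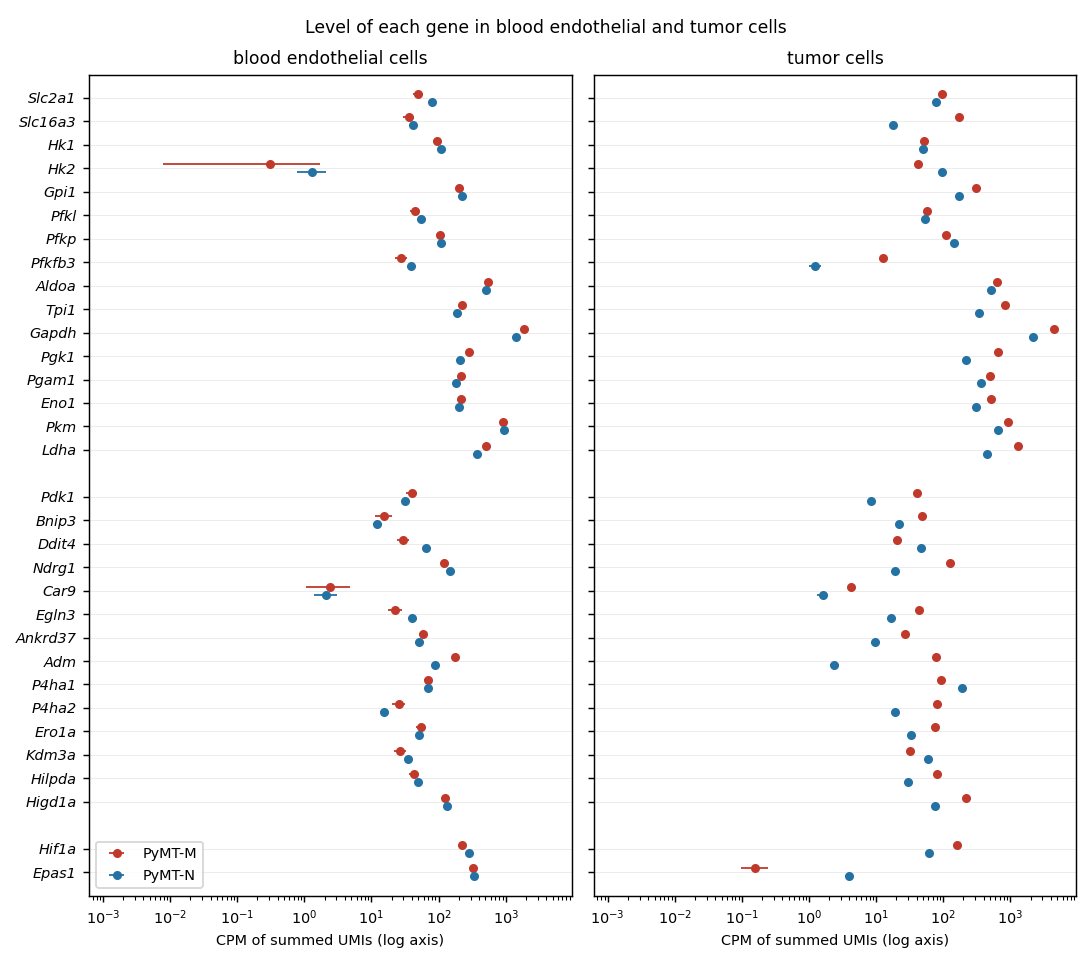
Level of each of the 32 genes in CPM, on a log axis, in blood endothelial and tumor cells of PyMT-M (red) and PyMT-N (blue), with exact 95% Poisson intervals for counting error. Red and blue points lie close together for most genes of the blood endothelial cells, and far apart in tumor cells for Slc16a3 (170 and 17.8 CPM), Ndrg1 (128 and 19.3 CPM) and Adm (79.4 and 2.39 CPM).

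The class with the highest level differed from member to member, and for some members, such as Slc2a1 and Slc16a3, between the libraries. In this ordering the lymphatic class held all 20 (PyMT-M) and 207 (PyMT-N) cells that met its rule. In PyMT-N 174 of them also met the blood endothelial rule. Of the 16 glycolytic genes, tumor cells had the highest level of the 5 classes for 13 in PyMT-M, and for 9 in PyMT-N, where blood endothelial cells were highest for the other 7. Of the 14 HIF-only targets, no class led for more than 5 genes in either library. The share of all genes led by each class was not counted. For some members the interval of the leading class overlapped that of the next, among them Slc2a1 and Pkm in PyMT-M and Aldoa and Pgk1 in PyMT-N. Adm, which encodes the vasodilator peptide adrenomedullin, was highest in blood endothelial cells of both libraries, at 178 and 89.1 CPM. Its interval there overlapped that of the lymphatic cells in PyMT-M. P4ha2, a catalytic subunit of collagen prolyl hydroxylase, was highest in fibroblasts at 237 and 110 CPM, with intervals apart from those of the next class, the tumor cells. Ndrg1, a stress-responsive gene, was highest in cells that met the lymphatic rule, at 382 and 313 CPM.

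The hexokinases, which trap glucose in the cell, were split by cell class. Hk1 was at 94.2 and 108 CPM in blood endothelial cells, the highest level of the 5 classes in both libraries, and at 50.8 CPM in the tumor cells of each. Hk2 had 1 UMI in the 583 PyMT-M blood endothelial cells and 18 in the 1013 PyMT-N ones, or 0.307 and 1.31 CPM, against 41.6 and 95.9 CPM in tumor cells and 56.2 and 65.7 CPM in fibroblasts. Blood endothelial cells were the lowest of all classes for Hk2 in both libraries. Pfkfb3, whose product makes the main activator of phosphofructokinase, was at 27.6 and 39.5 CPM in blood endothelial cells and at 12.8 and 1.24 CPM in tumor cells. Car9, a carbonic anhydrase known as a hypoxia marker, was near the limit of detection everywhere, at most at 4.17 CPM, with 8 and 29 UMIs in blood endothelial cells.

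**Figure D2:**
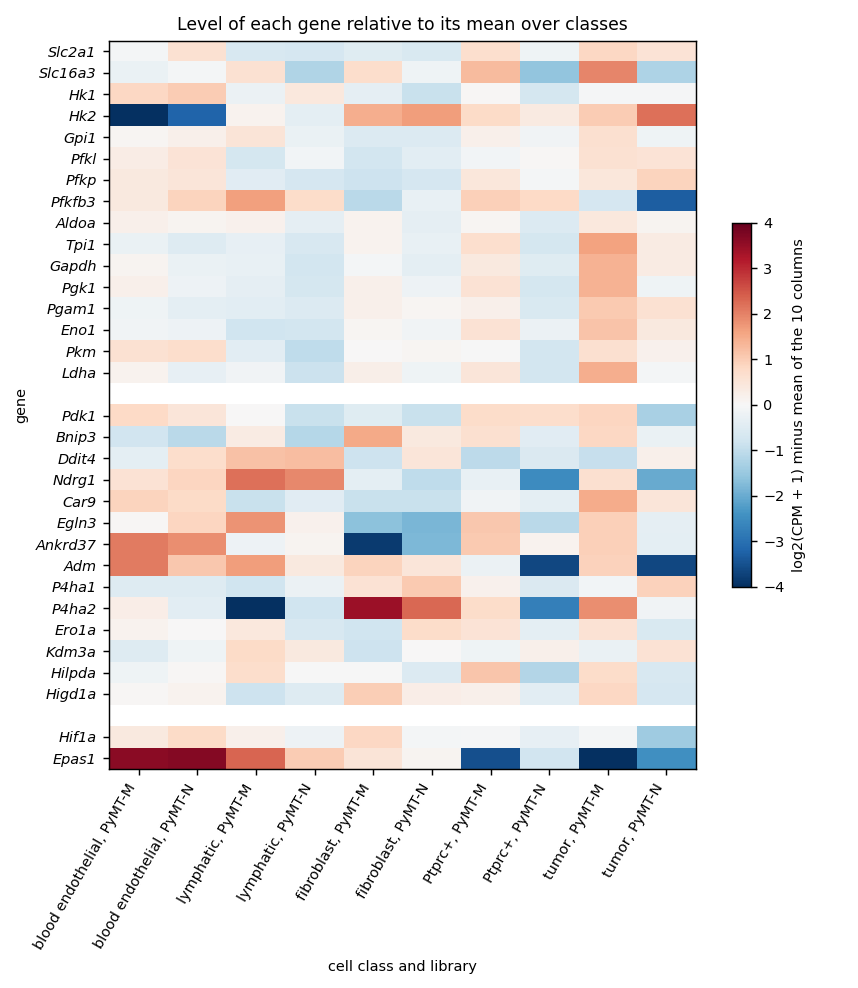
Level of each gene in 5 cell classes of both libraries, as log2(CPM + 1) minus the mean of the gene's 10 values, so that red is above and blue below that mean. Lymphatic columns hold all cells that met the lymphatic rule, and fibroblast and PyMT-M lymphatic columns rest on 20 to 53 cells. Epas1 and Hk2 show the widest contrast between blood endothelial and tumor columns.

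Between the lines, blood endothelial cells differed little in glycolytic genes, and in 4 HIF-only targets in both directions. Counts this small cannot be told apart from the shares of all genes given below. A gene is called past the fold where CPM differed at least 1.5-fold and the exact 95% interval of the ratio lay on 1 side of 1, among genes with at least 50 UMIs over both sums. Of all 11047 genes measured in this comparison, 10.8% were past the fold and higher in PyMT-M and 7.81% were lower, with a median log2 ratio of 0.02. None of the 15 glycolytic genes measured was past the fold and higher, and 1 was lower. Their median log2 ratio was -0.07, with a range from -0.71 to 0.45.

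The lower glycolytic gene was the glucose transporter Slc2a1, at 49.7 CPM (PyMT-M) against 81.1 CPM (PyMT-N), a log2 ratio of -0.71 (95% interval -0.95 to -0.47). The call was lost without cycling cells, at -0.56, and at -0.50 when cells were counted in every class they met. Several enzymes of later steps were higher in PyMT-M without reaching the fold. Ldha, lactate dehydrogenase, was at 511 and 374 CPM (0.45, 0.37 to 0.53), Pgk1, phosphoglycerate kinase, at 284 and 212 CPM (0.42, 0.31 to 0.53), and Gapdh at 1865 and 1422 CPM (0.39, 0.35 to 0.43). No fold limit was set for the next count, and the share of all genes with such intervals was not counted. In these sums 6 glycolytic genes had intervals above 1 and 6 had intervals below 1, so no common direction was seen. Tpi1, Pgam1 and Aldoa were among the former, at 0.24, 0.23 and 0.10. Pfkfb3 (-0.52), Pfkl (-0.28), Hk1 (-0.20), Gpi1 (-0.13) and Pkm (-0.07) were, with Slc2a1, the latter. Intervals of Slc16a3, Pfkp and Eno1 included 1. When only cells whose count of genes lay no more than 2-fold from their library's median were used (305 and 980 cells), Pgk1 reached the fold at 0.61.

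HIF-only targets were past the fold in both directions, 2 higher and 2 lower of 13 measured, beside 10.8% higher and 7.81% lower of all genes. Their median log2 ratio was -0.00. Adm had 579 UMIs in the PyMT-M sum against 1224 in the deeper PyMT-N sum, or 178 and 89.1 CPM, a 1.99-fold difference (log2 1.00, 0.85 to 1.14). It was past the fold under every alternative way of choosing and scaling cells that was run, between 0.86 and 1.14, but not at a limit of 2-fold. P4ha2 was at 25.8 and 15.6 CPM (0.73, 0.34 to 1.10) on 84 and 214 UMIs. Among the 423 and 113 blood endothelial cells without any tumor marker UMI its ratio was 0.28 and no longer past the fold, and the tumor cells had 80.4 and 19.2 CPM of this gene. This subset held 423 of 583 PyMT-M cells but 113 of 1013 PyMT-N cells. The part of tumor RNA in the P4ha2 difference was not tested.

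The lower targets were Ddit4, an inhibitor of mTOR signaling induced by stress, and Egln3, the prolyl hydroxylase that marks HIF alpha subunits for degradation and is itself a HIF target. Ddit4 was at 29.8 CPM (PyMT-M) against 64.0 CPM (PyMT-N) (-1.11, -1.42 to -0.80), and stayed between -1.05 and -1.14 under the alternatives. Egln3 was at 22.7 and 40.4 CPM (-0.83, -1.20 to -0.48), and at -0.53, not past the fold, with the filter around the median number of genes. The remaining 9 targets were not past the fold. Ndrg1 (121 and 150 CPM) and Kdm3a, a histone demethylase (27.0 and 34.5 CPM), had intervals below 1, and Pdk1, which inhibits pyruvate dehydrogenase, had an interval above 1 (39.6 and 31.8 CPM). Bnip3, a mitophagy receptor (15.3 and 12.2 CPM), Ankrd37 (58.3 and 50.6), P4ha1 (68.7 and 68.9), the oxidase Ero1a of the endoplasmic reticulum (54.6 and 50.7), the lipid droplet protein Hilpda (42.6 and 49.0) and the mitochondrial protein Higd1a (125 and 133) had intervals that included 1.

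The alpha subunits were high in blood endothelial cells of both libraries and were not past the fold. Epas1 was at 329 and 340 CPM (log2 ratio -0.04, -0.14 to 0.05). Hif1a was at 222 CPM (PyMT-M) against 284 CPM (PyMT-N) (-0.36, -0.47 to -0.24), an interval below 1.

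The libraries differed in the share of endothelial states, so the comparison was repeated within states. Cycling cells were 13.7% (PyMT-M) and 6.71% (PyMT-N) of blood endothelial cells. Tip-marker-high cells, with Apln, Esm1 and Kcne3 together at 500 CPM or more and not cycling, were 36.9% and 30.1%, or 215 and 305 cells. The limits are fixed in CPM, so a typical cell of the shallower PyMT-M library passes them on fewer UMIs. The part of depth in these shares and in the ratios within states was not tested. Within tip-marker-high cells the PyMT-M over PyMT-N log2 ratio was 0.88 for Adm, 0.61 for P4ha2, -1.37 for Ddit4, -0.62 for Slc2a1 and -0.81 for Hilpda, all past the fold (7.88% of 8660 genes were higher and 7.78% lower). In the remaining cells Slc2a1 (-0.74), Ddit4 (-0.88), Egln3 (-3.27) and Ankrd37 (-0.62) were past the fold and lower and Bnip3 (0.93) and P4ha2 (1.07) higher (9.79% and 8.7% of 9952 genes), while Adm was not past the fold. Egln3 in these cells rested on 4 UMIs in PyMT-M. In cycling cells, 80 and 68 in number, Adm was higher (1.51) and Slc2a1 (-1.55), Slc16a3 (-0.82), Pfkl (-0.85), Ddit4 (-1.06), P4ha1 (-0.62) and Hif1a (-0.65) were lower (7.45% and 7.42% of 5920 genes). Slc2a1 and Ddit4 were thus past the fold and lower in PyMT-M in all 3 states, and Adm higher in 2 of 3. The share of all genes past the fold in more than 1 state was not counted.

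Tumor cells differed far more between the lines, in these genes and in general. Of 14922 genes measured in tumor cells, 29.4% were past the fold and higher in PyMT-M and 34.5% were lower, with a median log2 ratio of -0.08. Against that background 8 of 16 glycolytic genes were higher and 1 lower (median 0.61), and 11 of 14 HIF-only targets were higher and 3 lower (median 1.40). Scaling to a total that omits mitochondrial genes, ribosomal protein genes and hemoglobin moved the median of all genes to 0.12, and all 23 of these calls held under each alternative way of choosing and scaling cells. Tumor cells of PyMT-M were also 43.1% cycling by Mki67 and Top2a, against 2.99% in PyMT-N. Without cycling tumor cells Adm was at 5.58, Ndrg1 at 3.07, Ldha at 1.68 and Pgk1 at 1.76, and all 23 members stayed past the fold.

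Adm had the widest difference of the members in tumor cells, at 79.4 CPM (PyMT-M) against 2.39 CPM (PyMT-N), 33.2-fold (log2 5.05, 4.84 to 5.27). The lactate exporter Slc16a3 was at 170 and 17.8 CPM (3.25, 3.17 to 3.34) and Pfkfb3 at 12.8 and 1.24 CPM (3.36, 3.06 to 3.68). Enzymes of the later steps followed at smaller ratios. Pgk1 was at 646 and 218 CPM (1.57), Ldha at 1284 and 442 (1.54), Tpi1 at 835 and 339 (1.30), and Gapdh at 4548 and 2161 (1.07), with Gpi1 at 0.84 and Eno1 at 0.75. Slc2a1 (0.30), Pkm (0.46), Pgam1 (0.44), Aldoa (0.32), Pfkl (0.06), Hk1 (0.00) and Pfkp (-0.42) were not past the fold. Hk2 was the only glycolytic gene past the fold and lower, at 41.6 against 95.9 CPM (-1.21, -1.26 to -1.15).

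The other HIF-only targets that were higher in PyMT-M tumor cells were Ndrg1 (128 and 19.3 CPM, log2 2.72), Pdk1 (41.0 and 8.46, 2.28), P4ha2 (80.4 and 19.2, 2.07), Higd1a (1.50), Ankrd37 (1.46), Hilpda (1.41), Car9 (1.38), Egln3 (1.36), Ero1a (1.20) and Bnip3 (1.14). Ddit4 (20.2 and 46.0 CPM, -1.18), P4ha1 (92.0 and 188 CPM, -1.03) and Kdm3a (32.5 and 59.3 CPM, -0.87) were lower. The list therefore did not move as a block, and P4ha1 and P4ha2, alternative catalytic subunits of collagen prolyl hydroxylase, differed in opposite directions. Hif1a was at 159 and 61.5 CPM (1.37, 1.33 to 1.42). Epas1 was nearly absent from tumor cells of both lines, with 19 UMIs (PyMT-M) and 292 UMIs (PyMT-N), 0.159 and 3.90 CPM (-4.62, -5.37 to -3.95).

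**Figure D3:**
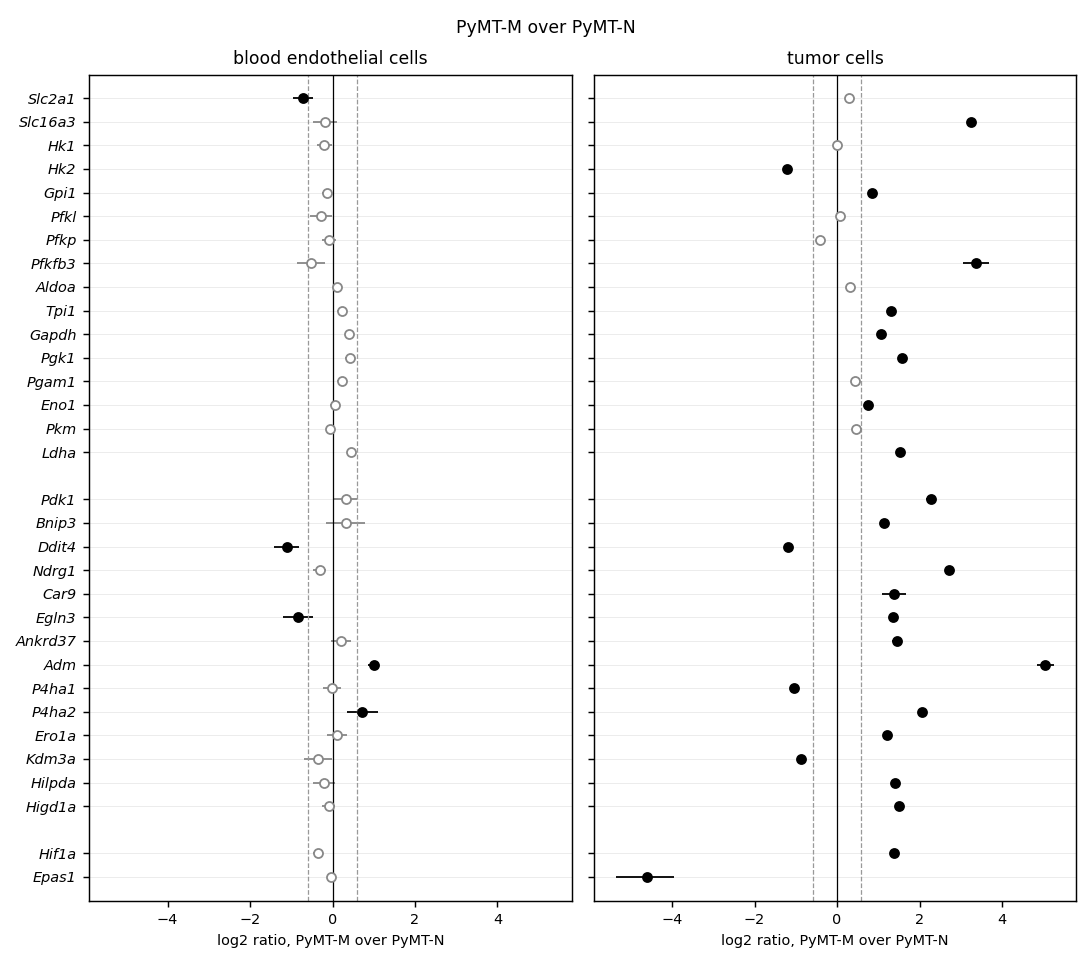
Each member's PyMT-M over PyMT-N ratio (log2) in blood endothelial and tumor cells, with exact 95% intervals for counting error, dashed lines at 1.5-fold, filled black points past the fold and open grey points not. Genes under 50 UMIs are not drawn (Hk2 and Car9 in blood endothelial cells). The blood endothelial points gather around 0 except for Adm, P4ha2, Slc2a1, Egln3 and Ddit4, while 19 of 30 glycolytic genes and HIF-only targets are past the fold and higher in tumor cells.

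Within each library blood endothelial cells were set against tumor cells, a contrast in which cell classes share a library. In PyMT-M 29.2% of 13481 genes were past the fold and higher in blood endothelial cells and 24.4% were lower, and in PyMT-N 26.8% and 24.3% of 13942 genes. Of 16 glycolytic genes 2 were higher and 10 lower in PyMT-M (median -1.06), and 3 were higher and 5 lower in PyMT-N (median -0.02). Of 14 HIF-only targets 2 were higher and 5 lower in PyMT-M (median -0.44), and 8 were higher and 3 lower in PyMT-N (median 0.67). With the total scaled without mitochondrial genes, ribosomal protein genes and hemoglobin, the number of lower HIF-only targets in PyMT-M was 8. The same scaling turned the split of all genes in PyMT-M from 3933 higher and 3292 lower to 3220 higher and 4243 lower, a median shift from 0.03 to -0.22.

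Some members had the same direction in both libraries. Hk1, Pfkfb3, Ankrd37 and Adm were past the fold and higher in blood endothelial cells in both, with log2 ratios of 0.89 and 1.09, 1.11 and 4.99, 1.14 and 2.39, and 1.16 and 5.22, PyMT-M first. Tpi1 (-1.89 and -0.83), Gapdh (-1.29 and -0.60), Pgam1 (-1.22 and -1.01), Eno1 (-1.28 and -0.59), Bnip3 (-1.67 and -0.86) and Hk2 were lower in both. In PyMT-N the Gapdh and Eno1 calls were lost at 5% mitochondrial UMIs, both at -0.58, and the Bnip3 call in cells without a tumor marker UMI, at -0.70 with an interval that included 1. The Hk2 ratio was -6.19 in PyMT-N and, on 1 UMI, -7.08 in PyMT-M (-12.39 to -4.60). Across all 12357 genes measured in both libraries, 2179 were higher and 1321 lower in both. Epas1 had the widest ratio of the members, at 11.02 (10.37 to 11.76) and 6.44 (6.27 to 6.62), and Hif1a was at 0.48 and 2.21.

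Other members stood differently in the 2 libraries. Slc16a3 was lower in blood endothelial than in tumor cells of PyMT-M (36.2 against 170 CPM, log2 -2.23) and higher in PyMT-N (41.0 against 17.8 CPM, 1.21). Egln3 (-0.92 and 1.27), Hilpda (-0.91 and 0.71) and Higd1a (-0.79 and 0.80) also changed sides. Ndrg1 was at 121 against 128 CPM in PyMT-M and 150 against 19.3 CPM in PyMT-N (2.96). For each of these genes the blood endothelial level differed less between the libraries than the tumor level did.

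Tip-marker-high endothelial cells held more of many members than other endothelial cells. They were compared with the blood endothelial cells that were neither tip-marker-high nor cycling, 288 cells (PyMT-M) and 640 cells (PyMT-N). The class is a range cut from 3 genes that are not members, and 40 and 85 cells lay within 20% of its limit on either side. Whether these 3 genes themselves follow HIF was not tested, so the class is not known to be independent of the members. Tip-marker-high cells were somewhat deeper, with medians of 5673 and 13623 UMIs against 4247 and 11651.5. In PyMT-M 4.47% of 6852 genes were past the fold and higher in tip-marker-high cells and 7.65% were lower. In PyMT-N 2.09% of 10357 genes were higher and 5.87% lower. Of 15 glycolytic genes 5 were higher and 0 lower in each library, with medians of 0.48 and 0.53 against -0.03 and -0.06 for all genes. Intervals lay above 1 for 12 of 15 in PyMT-M and 15 of 15 in PyMT-N. No fold limit was set for this count, and the share of all genes with such intervals was not counted. Doubling both limits gave 7 and 4 higher glycolytic genes, where 4.06% and 2.09% of all genes were higher and 8.85% and 7.25% lower.

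Slc2a1, Slc16a3, Tpi1 and Pgk1 were past the fold in both libraries. The share of all genes past the fold in both libraries was not counted. Slc2a1 was at 73.5 against 39.1 CPM in PyMT-M (log2 0.91) and 113 against 65.4 CPM in PyMT-N (0.79), so the PyMT-N cells were above the PyMT-M cells in each state. Slc16a3 was at 52.6 against 22.9 CPM (1.20) and 60.7 against 28.1 CPM (1.11). Tpi1 had log2 ratios of 0.88 and 0.76, and Pgk1 of 0.85 and 0.73. The fifth gene was pyruvate kinase, Pkm, in PyMT-M (0.69, against 0.36 in PyMT-N) and Pgam1 in PyMT-N (0.65, against 0.38 in PyMT-M), and the difference between libraries was not tested. Hk1 was nearly level, at -0.06 and 0.19. With the limits of the states doubled, Slc2a1 (0.44) and Pgam1 (0.58) in PyMT-N were not past the fold.

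HIF-only targets showed wider ratios than the enzymes. In PyMT-M 6 of 12 measured were past the fold and higher in tip-marker-high cells and 1 was lower (median 0.65), and in PyMT-N 8 of 13 were higher and 0 lower (median 0.80). Adm was at 346 against 45.8 CPM in PyMT-M (log2 2.92, 2.53 to 3.32) and 188 against 41.8 CPM in PyMT-N (2.16, 1.98 to 2.35). Ankrd37 was at 104 against 21.4 CPM (2.28, 1.69 to 2.91) and 87.5 against 32.9 CPM (1.41, 1.18 to 1.64). The level of Adm in the reference cells was nearly the same in both libraries, and that of the tip-marker-high cells was not.

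Ero1a was at 88.2 against 28.1 CPM (1.65) and 85.1 against 34.0 CPM (1.32). Egln3 was at 49.5 against 2.95 CPM in PyMT-M, on 64 and 4 UMIs (4.07, 2.64 to 5.99), and at 67.2 against 28.6 CPM in PyMT-N (1.23, 0.98 to 1.49). P4ha1 was higher in both at 0.89 and 0.69. These 5 targets, Adm, Ankrd37, Ero1a, Egln3 and P4ha1, were past the fold in both libraries, a rule for which the share of all genes was not counted. Pdk1 was past it in PyMT-M (0.78), and Bnip3 (1.73), Hilpda (1.58) and P4ha2 (0.80) in PyMT-N. Ddit4 was the exception, at 19.3 against 39.1 CPM in PyMT-M (-1.02, -1.76 to -0.31) and 49.9 against 71.8 CPM in PyMT-N (-0.52, not past the fold). Ndrg1 was level in both, at 0.16 and 0.06.

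The alpha subunits were not higher in tip-marker-high cells. Hif1a had log2 ratios of -0.17 and -0.12 and Epas1 of -0.42 and -0.05, none past the fold. Of 22 other hypoxia response genes 12 were measured in PyMT-M, 5 higher (Mxi1, Plod1, Fam162a, Mif and Cited2) and 1 lower (Rora, -2.28), and 17 in PyMT-N, 4 higher (Plod2, Fam162a, Mif and Cited2) and 1 lower (Rora, -0.68). Genes of pyruvate entry and the TCA cycle were past the fold for 0 of 15 in each library, with medians of 0.04 and 0.09. Of 12 cell cycle genes 6 were measured in PyMT-M with 0 past the fold, and 9 in PyMT-N with 4 higher, the reference and tip-marker-high cells both lacking cells over the cycling limit.

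**Figure D4:**
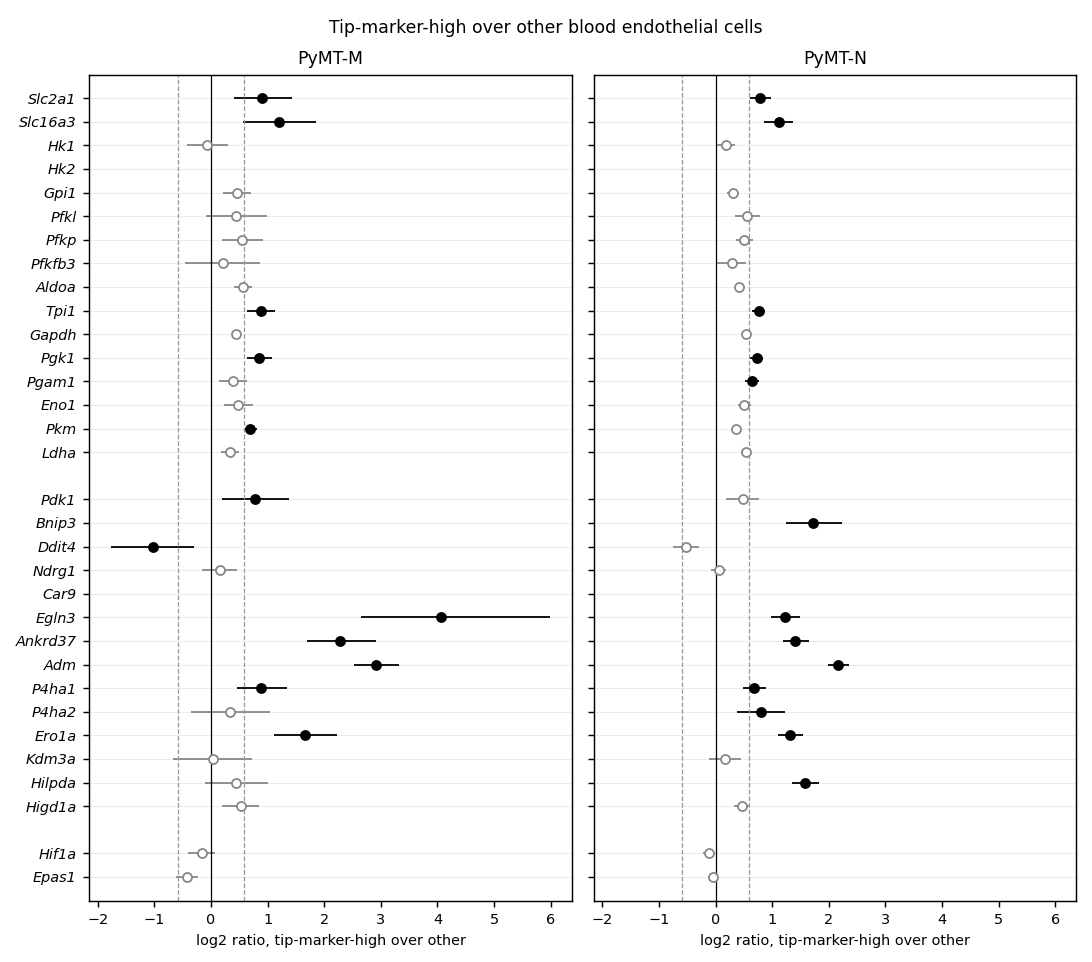
Log2 ratio of tip-marker-high over other blood endothelial cells for each member in PyMT-M and PyMT-N, with exact 95% intervals for counting error, dashed lines at 1.5-fold, filled black points past the fold and open grey points not. Hk2 and Car9 in both libraries and Bnip3 in PyMT-M had under 50 UMIs and are not drawn. Adm, Ankrd37, Egln3 and Ero1a lie farthest to the right in PyMT-M, and Hif1a and Epas1 lie at or left of 0 in both.

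Cycling endothelial cells were compared with the same reference. No tip-marker limit was set for cycling cells, so they can hold cells high in Apln, Esm1 and Kcne3, which the reference lacks. The part of such cells in the ratios below was not tested. In PyMT-M 9.86% of 6143 genes were past the fold and higher in cycling cells and 9.02% lower, and in PyMT-N 11.9% and 12.6% of 9977 genes. Of the glycolytic genes Pgk1 was higher in PyMT-M (0.69), 1 of 14 measured. In PyMT-N 7 of 15 were higher (Slc16a3 0.97, Eno1 0.77, Pgam1 0.74, Ldha 0.73, Pfkl 0.71, Pgk1 0.71, Tpi1 0.59) and Pfkfb3 was lower (-0.91), but with both limits doubled 3 were higher (11.7% of all genes higher, 10.6% lower), and 0 in PyMT-M (9.22% and 7.02%). Ndrg1 was lower in cycling cells of both libraries, at 65.4 against 127 CPM in PyMT-M (-0.96) and 61.4 against 156 CPM in PyMT-N (-1.35). Adm and Ankrd37 were higher in cycling cells of PyMT-M, at 1.32 and 1.04, and at -0.06 and -0.04 in PyMT-N. With both limits doubled Adm stayed past the fold at 1.28, while Ankrd37 was at -0.05 on 11 and 58 UMIs. In all, 2 HIF-only targets were higher and 1 lower of 10 measured in PyMT-M, and 1 higher (P4ha2, 0.78) and 1 lower of 13 in PyMT-N.

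Lymphatic cells were few, and 174 of the 207 PyMT-N cells that met the lymphatic rule also met the blood endothelial rule, so values are given for all 207 and for the 32 that met no other rule. In PyMT-M 20 cells met the rule and 12 met it alone. Against blood endothelial cells of PyMT-N, 17.9% of 11277 genes were past the fold and higher in the 207 cells and 12.6% lower. Of 16 glycolytic genes 1 was higher and 6 lower, and of 13 HIF-only targets 1 was higher and 6 lower. Ndrg1 was the higher target, at 313 against 150 CPM (log2 1.06, 0.95 to 1.18), and was at 0.63 in the 32 cells, 1.66 in the 20 PyMT-M cells and 1.31 in the 12. Epas1 was lower in every version, at 53.6 against 340 CPM in the 207 cells (-2.66), -2.75 in the 32, -1.29 in the 20 and -1.33 in the 12. Ndrg1, Ddit4 (1.59) and Egln3 (1.79) were the targets past the fold and higher in the 20 PyMT-M cells, on 34, 8 and 7 UMIs, and Pkm (-1.05) was the lower glycolytic gene, where 7.58% of 7717 genes were higher and 6.91% lower. In the 12 cells Ndrg1 was higher and Pkm (-0.79) lower, where 5.95% of 7663 genes were higher and 4.63% lower.

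Pkm (-1.72), Slc2a1 (-1.31), Pfkp (-1.18), Slc16a3 (-1.16), Pfkl (-0.69) and Hk1 (-0.60) were the lower glycolytic genes, and Ankrd37 (-1.84), Pdk1 (-1.45), Adm (-0.72), Egln3 (-0.71), Ero1a (-0.67) and Higd1a (-0.64) the lower targets. Hk2 was higher, at 15.2 against 1.31 CPM (3.53). Tumor markers outside the rule summed to 1889 CPM in the 207 cells and 8902 CPM in the 32 cells, against 214 CPM in blood endothelial cells. The part of tumor RNA in Hk2 and in the ratios of the 32 cells was not tested. In the 32 cells 1 glycolytic gene was higher (Tpi1, 0.70) and 4 lower, and 3 targets were higher (Ndrg1, P4ha1 and Kdm3a) and 4 lower, where 12.5% of 10834 genes were higher and 13.7% lower.

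Fibroblasts, 45 and 53 cells, held more of the collagen-modifying members than blood endothelial cells did. For P4ha1 their interval overlapped that of Ptprc+ cells in PyMT-M and that of tumor cells in PyMT-N. Over blood endothelial cells of the same library, P4ha2 had log2 ratios of 3.20 (PyMT-M) and 2.82 (PyMT-N), P4ha1 at 1.10 and 1.57, and Bnip3 at 2.35 and 1.52. Hk1 (-1.21 and -1.93), Pfkp (-1.24 and -1.17), Adm (-1.19 and -0.62), Ndrg1 (-0.96 and -1.91) and Epas1 (-3.14 and -3.59) were lower in both. In this contrast 11.5% of 8065 genes in PyMT-M and 16.8% of 11213 in PyMT-N were higher in fibroblasts, and 26.1% and 27% lower. Between libraries 9.49% of 5142 genes were higher in PyMT-M fibroblasts and 15.4% lower. Slc16a3 (0.88), Bnip3 (1.15), P4ha2 (1.11), Higd1a (0.75) and Hif1a (0.91) were higher, and Ddit4 (-1.33, on 7 and 72 UMIs) and Ero1a (-1.57, on 9 and 109 UMIs) lower. Tumor markers outside the rule summed to 331 CPM (PyMT-M) and 4542 CPM (PyMT-N) in fibroblasts, against 2371 and 28775 CPM in tumor cells.

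Ptprc+ cells, those left after CD45 depletion, were compared between the lines as well. Of 8433 genes 13.4% were past the fold and higher in PyMT-M and 11.2% lower. Of 16 glycolytic genes 11 were higher and 0 lower (median 0.78), and of 13 HIF-only targets 10 were higher and 0 lower (median 0.97). Slc16a3 was at 107 and 13.8 CPM (2.96), Hilpda at 104 and 20.5 CPM (2.34), and Ndrg1 at 65.8 and 13.4 CPM (2.30). P4ha2 (3.94) and Adm (3.89) rested on 6 UMIs each in PyMT-N. Against blood endothelial cells of their own library, 6 glycolytic genes were higher and 2 lower in Ptprc+ cells of PyMT-M (20% of 9139 genes higher, 26% lower), and 1 higher and 5 lower in those of PyMT-N (21.9% and 27.6% of 11568). Of 13 HIF-only targets 4 were higher and 4 lower in PyMT-M, and 1 higher and 7 lower in PyMT-N. The tumor markers outside the rule were Hmga2, Spp1, Lgals7, Krt19, Krt7, Epcam, Cldn7 and Cldn4. Whether leukocytes themselves express some of them, such as Spp1, was not tested. Ptprc+ cells held 1083 and 4365 CPM of these markers, against 2371 and 28775 CPM in tumor cells. They also held 2938 and 2576 CPM of macrophage markers and 1057 and 1531 CPM of lymphocyte markers. Of the tumor markers, 4 were at 0 in PyMT-M (Krt19, Krt7, Cldn7 and Cldn4) and 3 in PyMT-N. With at least 2 Ptprc UMIs per cell (287 and 243 cells) 11 glycolytic genes and 9 targets were higher, beside 13.4% of 7893 genes higher and 10.9% lower. The part of tumor RNA and of the mix of leukocytes in this difference was not tested.

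Neighbouring pathways were read from lists of other genes in blood endothelial cells. Of 16 other glycolysis genes 7 were measured, with 2 higher in PyMT-M, the glucose transporter Slc2a3 (7.06 and 2.77 CPM, 1.35) and the monocarboxylate transporter Slc16a1 (7.67 and 4.22 CPM, 0.86), and Bpgm lower (10.1 and 23.0 CPM, -1.18). Pfkm (0.55), Tigar (0.61) and Pfkfb2 (-0.55) were not past the fold. Of 22 other hypoxia response genes 19 were measured and 0 were lower, and Cited2, a transcriptional regulator, was higher (36.8 and 23.7 CPM, 0.63). Vegfa (0.53), Stc2 (-0.56), Plod1 (-0.53) and Plod2 (-0.52) were not past the fold. Of 5 oxygen sensing genes measured, the prolyl hydroxylase Egln1 was lower, at 67.8 and 106 CPM (-0.65, -0.86 to -0.45), and Egln2 (0.49), Arnt (-0.32), Vhl (-0.37) and Hif1an (-0.51) were not past the fold.

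None of 15 genes of pyruvate entry and the TCA cycle was past the fold between the libraries in blood endothelial cells. The highest ratios were those of Sdhb (0.50), Idh3a (0.42) and Mdh2 (0.33) and the lowest those of Pdha1 (-0.36), Sucla2 (-0.15) and Mpc1 (-0.15). Of 7 pentose phosphate genes G6pdx was past the fold and higher, at 13.2 and 8.59 CPM (0.62). Without a fold limit, 6 of 7 had intervals above 1, among them Pgls (0.52), Rpia (0.51), Pgd (0.35) and Taldo1 (0.34), with Rpe at 0.14. The share of all genes with intervals above 1 was not counted. Cell cycle genes were higher in PyMT-M for 10 of 12, with a median of 0.86. Mki67 and Top2a, which set the share of cycling cells, are among the 12.

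Within single cells the glycolytic and HIF-only sums went together to a modest degree. Each cell was thinned to 5000 UMIs, which left out 282 blood endothelial cells of PyMT-M and 45 of PyMT-N. Spearman's rho between the sums was 0.40 over 301 blood endothelial cells of PyMT-M and 0.29 over 968 of PyMT-N, and 0.44 over 4835 and 0.21 over 3274 tumor cells. Between the glycolytic sum and the cell cycle sum rho was 0.07 and 0.10 in blood endothelial cells and -0.19 and 0.05 in tumor cells. At 2500 UMIs the blood endothelial values were 0.21 over 517 cells and 0.20 over 1011, so both the depth and the cells kept differ from those above. Cells of a library share their preparation, and these are descriptions.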

How the data were processed

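The authors deposited UMI counts, whole numbers per gene and cell barcode that were not normalized, made with Cell Ranger 8.0.0 on mm39 per the submitters' processing notes. Barcodes with at least 200 genes and at most 10% mitochondrial UMIs were kept. They held 139729636 UMIs in PyMT-M (6719 of 7821 barcodes) and 114669155 in PyMT-N (5607 of 6974).

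Classes were cut per cell. Blood endothelial cells had at least 5 UMIs of Pecam1, Flt1, Emcn and Kdr and at most 1 of Krt8, Krt18 and Rhox5. Lymphatic cells had at least 3 UMIs of Prox1, Mmrn1 and Reln, tumor cells at least 3 of Krt8, Krt18 and Rhox5 and 0 of Pecam1 and Flt1, fibroblasts at least 3000 CPM of Col3a1, and Ptprc+ cells at least 1 Ptprc UMI. Cycling cells had Mki67 and Top2a together at 300 CPM or more. Counts were summed per class and library and scaled to CPM of the class. Ratios have the exact interval conditional on both Poisson counts. With 1 library per condition no test was run and no p-value was computed. Genes under 50 UMIs over both sums were left out of ratios.

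The 32 genes and the other lists were chosen with earlier results of these data known. All 32 are described, and of each other list the 3 highest and 3 lowest ratios between the libraries in blood endothelial cells, and a few further genes of those lists were named for the tip-marker-high comparison after their values were seen. One gene of the other lists is not reported here. Of 26 symbols listed with more than 1 identifier, Aldoa is a member, and ENSMUSG00000030695 was used (87721 and 57152 UMIs). The other Aldoa identifier had 49 and 12 UMIs and was left out. Reads shared with near-identical copies and pseudogenes, which concerns Gapdh, Ldha, Pgk1, Pgam1, Eno1 and Tpi1, could be lost or split in counting, so their levels are uncertain. Doublets were scored with Scrublet in scanpy 1.11.5, whose threshold called 1 and 138 barcodes, so the 6% with the highest scores were left out as an alternative. Promoters are from RefSeq on GRCm38.p6, another build than mm39, and no coordinates were carried between them. Ratios and intervals were tested on simulated counts before use. Intervals came from scipy 1.17.1 and sums from numpy 2.4.6 under Python 3.11.15, tables were handled with pandas 2.3.3, and matplotlib 3.10.9 drew the figures.

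Alternatives changed the filters on cells, the class thresholds, doublets, cycling cells, tumor marker UMIs, scaling, the mean over cells, the count minimum, the fold and the limits of the states. For the mean over cells a gene was called past the fold on the fold alone, with no interval. The cells that met the lymphatic rule with another rule, the comparison within states and the limit of 2 Ptprc UMIs were added after the data were seen.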

Additional observations from a re-analysis of the deposited data

Results flagged for a closer look

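For 8 members the PyMT-M over PyMT-N ratio lay on opposite sides of 1 in blood endothelial and in tumor cells, with both intervals clear of 1. No fold limit was set here, and the share of all genes that would meet this rule was not counted. The difference between the cell classes was not tested, since each has 1 library per line. Slc2a1 was at a log2 ratio of -0.71 in blood endothelial and 0.30 in tumor cells, Egln3 at -0.83 and 1.36, Pfkfb3 at -0.52 and 3.36, Hif1a at -0.36 and 1.37, and Ndrg1 at -0.31 and 2.72. The blood endothelial ratios of Pfkl (-0.28, against 0.06 in tumor cells), Gpi1 (-0.13 against 0.84) and Pkm (-0.071 against 0.46) were smaller. Of these, Slc2a1 and Egln3 were past the fold in blood endothelial cells. Tumor markers outside the class rule were at 54.3 CPM (PyMT-M) and 214 CPM (PyMT-N) in blood endothelial cells, against 2371 and 28775 CPM in tumor cells. At least 1 tumor marker UMI was found in 27.4% of the blood endothelial cells of PyMT-M and 88.8% of those of PyMT-N, and the part of tumor RNA in these ratios was not tested here.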

How the results depend on the processing

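No paired analysis was possible because each line has 1 library and the labels give no replicate numbers. No alternative leaves out a replicate for the same reason. Over the alternatives of choosing and scaling cells, 46 of 50 values of members past the fold stayed past it between libraries in blood endothelial cells, 200 of 200 in tumor cells, and 196 of 199 and 203 of 210 for blood endothelial over tumor cells in PyMT-M and PyMT-N, and 0 of them reversed. These numbers leave out the other fold and count limits: at 2-fold Ddit4 alone of the 5 members between libraries in blood endothelial cells stayed past the limit. They include the mean over cells, for which no interval was computed and the fold alone decided.

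In blood endothelial cells between libraries, higher glycolytic genes went from 0 to 1 (Pgk1) with the filter around the median number of genes. The lower glycolytic gene was lost (1 to 0) without cycling cells and at a limit of 2-fold. HIF-only targets went from 2 to 1 higher in cells without a tumor marker UMI, and at 2-fold to 0 higher and 1 lower. For blood endothelial over tumor cells of PyMT-M, 2-fold left 1 higher glycolytic gene and 2 lower HIF-only targets, and the total without mitochondrial, ribosomal protein and hemoglobin genes gave 8 lower targets in place of 5. In PyMT-N, lower glycolytic genes were 3 at 5% mitochondrial UMIs (without Gapdh and Eno1) and 2 at 2-fold in place of 5, higher targets 5 at 2-fold in place of 8, and lower targets 1 in place of 3 at 2-fold and in cells without a tumor marker UMI.

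With both limits of the states doubled, cycling cells of PyMT-M had 0 higher and 1 lower glycolytic gene and 1 higher target (Ankrd37 went from 1.04 to -0.05), those of PyMT-N 3 higher and 0 lower glycolytic genes and 0 higher and 4 lower targets, and tip-marker-high cells of PyMT-N 1 lower target. Lymphatic cells of PyMT-N had 1 higher target in place of 3 with all cells that met the rule. The causes were not tested, except that 2-fold counts fewer genes by construction. Counts over all genes in blood endothelial cells between libraries were 1191 higher and 863 lower, 525 and 399 at 2-fold, 676 and 622 with at least 200 UMIs, 777 and 613 without tumor marker UMIs, 1096 and 1496 with cells in every class they met, and 1668 and 967 with no count minimum. The rank correlation of the glycolytic and HIF-only sums over PyMT-M blood endothelial cells was 0.21 in place of 0.40 at 2500 UMIs.

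Depth limits Hk2 and Car9, and in PyMT-M Egln3, P4ha2 and Bnip3, which had 50 to 84 UMIs in blood endothelial cells. Intervals cover counting error only and not the spread between tumors, which pooling hides.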
